A study of Homo sapiens with 18 samples.

Results

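The 37 genes described here carry the cellular response to low oxygen and the breakdown of glucose: the subunits of the hypoxia-inducible factor (HIF), its prolyl hydroxylases, glucose transporters, glycolytic enzymes, the enzymes that set glycolytic flux, and secreted, mitochondrial and matrix genes known as HIF targets. They were taken by name from the 60603 genes of each deposited count table, and all 37 were found and passed the filter on low counts in both tables. The cells were MDA-MB-231, an established line of triple-negative breast adenocarcinoma cells, and polyadenylated RNA was sequenced in 18 libraries. The design asked how ZMYND8, a chromatin reader, alters the response of these cells to a low dose of doxorubicin, an anthracycline that intercalates into DNA and traps topoisomerase II.

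In the inducible experiment, cells stably carried a doxycycline-inducible GFP or Flag-ZMYND8 cDNA, and doxycycline at 250 ng/mL was given to all 6 groups: GFP and ZMYND8 cells without doxorubicin, and both after 6 h and 48 h of doxorubicin at 0.6 uM. In the transient experiment, untreated control cells were compared with cells given 0.6 uM doxorubicin for 48 h, either alone or with a Flag-ZMYND8 vector, and no doxycycline was used. Each of the 9 groups had 2 libraries, named in the labels as biological replicates. GFP and ZMYND8 cells are separately made stable lines, with 1 line of each, so that an effect of ZMYND8 and a difference between the lines cannot be told apart. No group was labelled as hypoxic, and the labels name no change in oxygen. In these bulk libraries, fewer cells that express a gene and less RNA per cell cannot be told apart.

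HIF is a dimer of an oxygen-sensitive alpha subunit, encoded by HIF1A or EPAS1 (HIF-2 alpha), with the constant partner ARNT. When oxygen is present, prolyl hydroxylases of the EGLN family mark the alpha subunit for VHL-dependent breakdown, so that its protein, more than its mRNA, follows oxygen. HIF binds a short core sequence, A or G followed by CGTG, near genes for glucose uptake, glycolysis, lactate production, angiogenesis and matrix assembly, and many cancer cells run these genes at a high level in normal oxygen.

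Promoters were read to show where that core lies in the genes whose transcripts are described below. RefSeq promoter windows of 300 bases, from 250 before to 50 after a transcription start, were found for 32 of the 37 genes, in 53 windows on GRCh38.p14. BNIP3L, LOXL2, VEGFA, SLC2A3 and NDRG1 had no entry. ACGTG or GCGTG occurred on either strand in 39 of the 53 windows (73.6%), against 48.4% of all 35116 promoter windows. ACGTG alone occurred in 43.4% of the member windows against 21.4%, GCGTG in 47.2% against 36.5%, and the palindrome CACGTG, which contains ACGTG, in 15.1% against 7.26%. These are counts of letters in sequence and not of bound factor. Long stretches of the promoters of 2 glycolytic genes, LDHA and GAPDH, and of ADM are shown first. After 48 h of doxorubicin in ZMYND8 cells ADM was higher and LDHA and GAPDH were lower, but in the transient experiment ADM was lower too. The stretches run 5′ to 3′ on the gene's strand, with the core or its reverse complement (CACGT or CACGC) in capitals.
LDHA (chr11:18394443-18394562, + strand): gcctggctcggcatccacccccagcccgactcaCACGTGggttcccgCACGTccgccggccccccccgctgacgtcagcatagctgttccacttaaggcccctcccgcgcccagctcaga
GAPDH (chr12:6535144-6535263, + strand): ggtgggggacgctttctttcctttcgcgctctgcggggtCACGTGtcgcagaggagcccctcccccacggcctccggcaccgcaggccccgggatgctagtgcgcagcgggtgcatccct
ADM (chr11:10304953-10305072, + strand): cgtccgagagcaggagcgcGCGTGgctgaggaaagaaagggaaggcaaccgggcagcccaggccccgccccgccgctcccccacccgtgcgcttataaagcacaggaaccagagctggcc
For other genes described below, 30 bases around the core nearest to a start are given in the same way, with the distance from the start of that RefSeq window. LOX has several such starts, and the outermost is used.
CA9 (chr9:35673897-35673926, + strand, 18 bases before the start): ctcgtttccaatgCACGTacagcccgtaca
PDK1 (chr2:172556060-172556089, + strand, 8 bases before the start): ccctgctgcccgcCACGTccctCACGTacc
ALDOC (chr17:28576907-28576936, - strand, 28 bases before the start): cccccggaggagtCACGTagctctgcgaca
P4HA1 (chr10:73096936-73096965, - strand, 86 bases before the start): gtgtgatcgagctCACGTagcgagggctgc
PFKFB4 (chr3:48556953-48556982, - strand, 166 bases before the start): gtgagttgggcatGCGTGgtcggaggccgg
LOX (chr5:122078285-122078314, - strand, 42 bases before the start): tgtaactttgcaaACGTGccagaaagttta
ANKRD37 (chr4:185396685-185396714, + strand, 143 bases before the start): ccagtgtttgtgtACGTGcggccgtggcgg
ANGPTL4 (chr19:8363908-8363937, + strand, 234 bases before the start): gggaaagaagagtCACGTctcccacggttc
PGK1 (chrX:78104052-78104081, + strand, 183 bases before the start): caaacggaagccgCACGTctcactagtacc
Each core lies upstream of the start of its own window, but CA9 apart, the 30 bases fall within the gene as the annotation of the count tables spans it. The stretch of GAPDH is placed likewise. PDK1 has 2 copies of CACGT within the 30 bases shown, and in CA9 and ALDOC the nearest core sits 18 and 28 bases before the start, whereas in ANGPTL4 it sits 234 bases before it.

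Depth ranged from 18300628 to 23724398 counts in the 12 inducible libraries and from 5729294 to 24713822 in the 6 transient libraries, of which 1, the second doxorubicin library, held far more than the others (at most 5972396). ZMYND8 itself was higher in ZMYND8 cells than in GFP cells without doxorubicin, at 921 and 926 against 209 and 208 normalised CPM (counts scaled to library size). In the transient experiment the libraries labelled ZMYND8 plus doxorubicin held 159 and 124 CPM of it and control cells 218 and 198 CPM. The labelled libraries were thus lower, not higher, but they also had doxorubicin, and its effect on ZMYND8 cannot be told apart here. Against doxorubicin alone, 0 of the 15697 genes tested were called higher in the labelled libraries. The label is therefore not borne out by a higher level, and no direction for ZMYND8 is drawn from these libraries. The counts of the second library of each transient doxorubicin group were far closer to each other than those of any other transient pair (chi-square per degree of freedom 1.39, against 9.71 to 55.6). Pairs within a group of the inducible experiment were at 2.19 to 5.21. The counts of lower members in the transient comparisons are given with and without these near-identical libraries. Reads of a gene and of its antisense partner could not be told apart in the transient libraries. There the median ratio of an antisense gene to the sense gene that contains it, in counts per kilobase of exon, was 1.43 to 1.62. In the inducible libraries this median ratio was 0.0711 to 0.1. Exons of 18 of the 37 genes overlap a gene on the other strand. Genes that mark MDA-MB-231 cells summed to 4213 to 8472 CPM. Leukocyte markers summed to at most 4.37 CPM, with CD3E at 0 in some libraries and PTPRC at up to 3.95 CPM. Fibroblast markers summed to at most 69.8 CPM, luminal and basal epithelial markers to at most 58.1 CPM and endothelial markers to at most 6.30 CPM.

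In untreated GFP cells, transcript levels differed by orders of magnitude between these genes once divided by exon length. The late glycolytic enzymes were the most abundant by CPM per kilobase of exon, with ENO1, which encodes enolase 1, at 715 ± 9.8 and LDHA, which makes lactate from pyruvate, at 563 ± 2.6 (mean ± SD, n = 2). GAPDH, singled out here after its values were seen, was higher still at 1557 ± 0.27. Of the HIF subunits, HIF1A (chr14:61695513-61748259, + strand) was at 121 ± 0.21, EPAS1 (chr2:46293667-46386697, + strand) at 27.6 ± 0.34 and ARNT (chr1:150809713-150876708, - strand) at 7.26 ± 0.16 on this scale. The cell-surface carbonic anhydrase CA9 (chr9:35673918-35681159, + strand), a widely used marker of hypoxia, was near the bottom at 4.15 ± 0.52, and ANGPTL4, a secreted inhibitor of lipoprotein lipase, was at 2.14 ± 0.1. ALDOA stood at only 4.66 ± 0.35, and 43.3% of its exon bases are shared with another annotated gene on the same strand, so that its counts are uncertain, as are those of EGLN1 (55.8%).

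After 48 h of doxorubicin, GFP cells held lower levels of nearly the whole set. At an adjusted p of at most 0.05, 34 of the 37 genes were lower and 2 higher, against 31.8% and 32.4% of the 18801 genes tested. Of these, 18 were lower by at least 2-fold, against 8.29% of all genes. The median log2 fold change of the 37 genes was -0.94, and that of all genes tested was 0.03. Together the 37 genes took 2.24% and 2.23% of all counts in the untreated libraries and 1.35% and 1.33% after 48 h. Over the same 48 h, the summed MDA-MB-231 markers went from between 8082 and 8103 CPM to between 4357 and 4441 CPM, and leukocyte markers from between 0.405 and 0.738 to between 3.77 and 4.37 CPM, and their part in these differences was not tested.

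**Figure D1:**
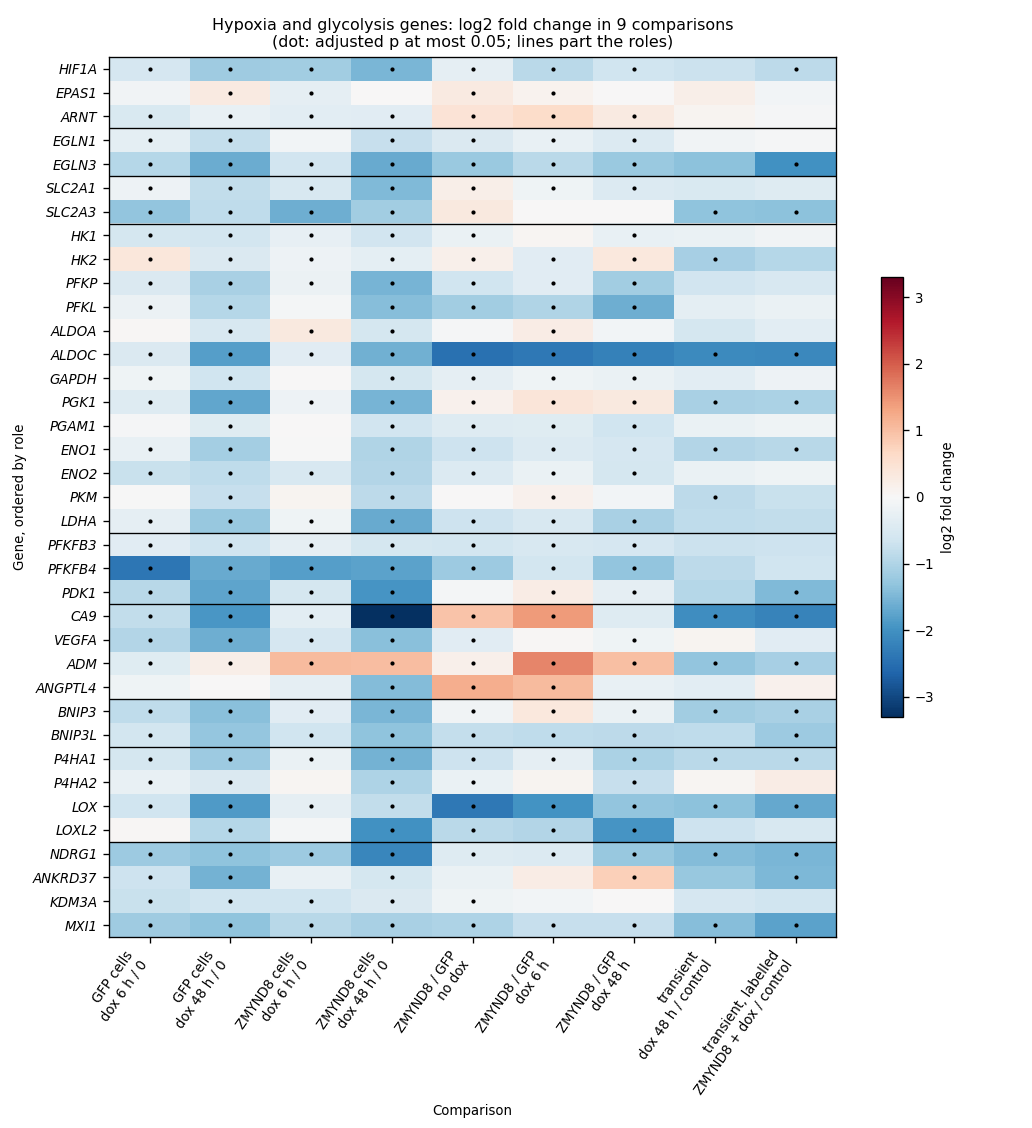
Log2 fold changes of the 37 genes (vertical axis, grouped by role with black lines) in 9 comparisons (horizontal axis), with blue for lower, red for higher and a dot where the adjusted p was at most 0.05. The 48 h column of GFP cells holds 34 lower genes and 2 higher, EPAS1 and ADM, and the 48 h column of ZMYND8 cells 35 lower and 1 higher, ADM.

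The 2 alpha subunits moved in opposite directions. HIF1A was at 625 and 624 CPM in untreated GFP cells, 422 and 425 CPM after 6 h and 275 and 278 CPM after 48 h. The libraries did not overlap between any of these groups, and HIF1A fell 2.26-fold by 48 h (log2 fold change -1.18 ± 0.04, adjusted p = 6.02e-20; here and below ± is an approximate SE). EPAS1 was at 199.5 and 203 CPM without doxorubicin, 193 and 181 CPM after 6 h and 248 and 244 CPM after 48 h, and its higher level at 48 h passed the test (0.29 ± 0.04, adjusted p = 2.23e-06). ARNT changed less (log2 fold change -0.24 ± 0.06, adjusted p = 6.99e-04), from 47.6 and 46.1 CPM to 40.4 and 38.7 CPM, and its difference was 0.0004 when libraries were scaled to their total counts. Per kilobase, HIF1A exceeded EPAS1 by 4.39 times without doxorubicin, 3.20 times after 6 h and 1.59 times after 48 h.

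Both prolyl hydroxylases fell. EGLN3, itself a HIF target, was at 44.9 and 46.5 CPM without doxorubicin and 15.7 and 13.6 CPM after 48 h (log2 fold change -1.64 ± 0.09, adjusted p = 1.18e-14), while EGLN1, the main oxygen sensor of most cells, went from 33.1 and 33.2 CPM to 17.9 and 20.4 CPM (-0.79). The glucose transporters also fell together. SLC2A1 (GLUT1), the basal transporter, was at 565 and 549 CPM before and 325 and 313 CPM after 48 h (-0.81 ± 0.04), and SLC2A3 (GLUT3) at 142 and 138 CPM before and 79.2 and 76.8 CPM after (-0.84 ± 0.05).

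All 13 glycolytic enzymes were lower after 48 h, with log2 fold changes from -1.81 to -0.41 and a median of -0.83. The largest was that of ALDOC, the brain-type aldolase, at 39.7 and 40.0 CPM without doxorubicin and 11 and 11.7 CPM after 48 h (log2 fold change -1.81 ± 0.10, adjusted p = 6.45e-15). PGK1, which makes the first ATP of the payoff phase, went from 1306 and 1300.2 CPM to 402 and 393 CPM, a 3.28-fold lower level (-1.71 ± 0.04, adjusted p = 6.59e-23). LDHA went from 3411 and 3389 CPM to 1428 and 1418 CPM (-1.26 ± 0.03), ENO1 from 3768 and 3696 CPM to 1760.2 and 1686 CPM (-1.11 ± 0.04), and the platelet-type phosphofructokinase PFKP from 675 and 679.7 CPM to 331 and 318 CPM (-1.06 ± 0.05). In none of these 5 did a treated library reach the level of an untreated one. The hexokinases, which trap glucose in the cell, had smaller log2 fold changes of -0.62 for HK1 and -0.48 for HK2.

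Of the genes that direct carbon into glycolysis, PFKFB4 and PDK1 were lower by more than 2-fold and PFKFB3 by less. PFKFB4, a bifunctional enzyme that sets the level of fructose 2,6-bisphosphate, was at 88.2 and 90.3 CPM without doxorubicin and 27.5 and 29.3 CPM after 48 h (log2 fold change -1.65 ± 0.07, adjusted p = 5.92e-17). PDK1, a kinase that keeps pyruvate out of the mitochondrial dehydrogenase, was at 58.3 and 56.1 CPM before and 16.8 and 17.5 CPM after (-1.74 ± 0.07, adjusted p = 7.31e-18). PFKFB3, the other member of the family listed, changed less (-0.64 ± 0.05).

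Among the secreted and surface genes the response was split. CA9 was the member with the lowest log2 fold change of the set, at 6.08 and 7.27 CPM before and 1.73 and 1.77 CPM after 48 h (-1.93 ± 0.19, adjusted p = 7.03e-10). VEGFA, the main angiogenic growth factor, went from 622 and 660.1 CPM to 212 and 206 CPM (-1.62 ± 0.04, adjusted p = 3.21e-22). ADM, the vasodilator peptide adrenomedullin, was instead slightly higher, at 71.2 and 69.2 CPM against 59.1 and 63.9 CPM (0.19 ± 0.05, adjusted p = 0.00288), but without the first untreated GFP library it was at 0.12 and no longer passed, which left 1 higher gene. ANGPTL4 was at 5.11 and 5.48 CPM without doxorubicin and 5.19 and 5.51 CPM after 48 h, a difference with a 95% interval of -0.29 to 0.32 on the log2 scale.

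The mitophagy receptors BNIP3 and BNIP3L fell with log2 fold changes of -1.38 and -1.27, with BNIP3 at 403 and 400.4 CPM before and 151 and 156 CPM after, and BNIP3L at 289 and 285 CPM before and 121 and 117 CPM after. All 4 collagen and matrix enzymes fell as well. LOX, which cross-links collagen and elastin, was at 147 and 145 CPM without doxorubicin and 40.5 and 39.6 CPM after 48 h (log2 fold change -1.87 ± 0.05, adjusted p = 6.23e-21). Its relative LOXL2 went from 664 and 679 CPM to 352 and 347 CPM (-0.94 ± 0.04), and P4HA1, a catalytic subunit of collagen prolyl hydroxylase, from 298 and 296 CPM to 131 and 128 CPM (-1.20 ± 0.04). P4HA2, the other catalytic subunit listed, had a log2 fold change of -0.47 ± 0.05.

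The 4 remaining targets were also lower. NDRG1, a stress-responsive gene used as a hypoxia marker, was at 1531 and 1559 CPM without doxorubicin and 621 and 608 CPM after 48 h (-1.33 ± 0.04, adjusted p = 2.22e-20). MXI1, an antagonist of MYC, went from 108 and 114 CPM to 43.5 and 44.5 CPM (-1.34 ± 0.05), and ANKRD37, a small ankyrin-repeat gene, from 9.32 and 8.54 CPM to 3.28 and 2.73 CPM (-1.57 ± 0.16). The exons of ANKRD37 and CA9 overlap genes of the other strand over 40.3% and 36.1% of their length, and those genes held 376% and 271% of their counts in the inducible libraries. The histone demethylase KDM3A had a log2 fold change of -0.66 ± 0.05. With libraries scaled to total counts, which moves the median of all genes in this comparison from 0.03 to 0.27, 33 members were lower in place of 34.

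The response was already present at 6 h, with another order of genes. At that time 30 of the 37 genes were lower in GFP cells and 1 higher, against 25.8% and 22.1% of all genes, and 4 were lower by at least 2-fold, against 6.11%. The median log2 fold change was -0.49 over the members and -0.05 over all genes. PFKFB4 fell most, to 17.1 and 16.9 CPM from 88.2 and 90.3 CPM (log2 fold change -2.39 ± 0.08, adjusted p = 1.22e-18), followed by SLC2A3, at 58.5 and 55 CPM (-1.30 ± 0.05, adjusted p = 3.76e-17), and NDRG1, at 707 and 649 CPM (-1.19 ± 0.04, adjusted p = 1.53e-18). The 1 higher gene was HK2, the inducible hexokinase, at 151 and 142 CPM against 115 and 111 CPM (0.38 ± 0.05, adjusted p = 1.04e-07).

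Between 6 h and 48 h, a comparison added after the values were seen, 28 genes were lower in GFP cells and 5 higher, against 30.2% and 32% of all genes. The largest falls were those of ALDOC (-1.33 ± 0.10), PGK1 (-1.30 ± 0.04) and LOX (-1.21 ± 0.06) on the log2 scale. The 5 higher genes included PFKFB4 and SLC2A3, which had fallen furthest at 6 h, and ADM. PFKFB4 rose from 17.1 and 16.9 CPM at 6 h to 27.5 and 29.3 CPM at 48 h (0.74 ± 0.09, adjusted p = 4.03e-08), SLC2A3 from 58.5 and 55 CPM to 79.2 and 76.8 CPM (0.46 ± 0.05, adjusted p = 3.75e-08) and ADM from 47.3 and 46.6 CPM to 71.2 and 69.2 CPM (0.58 ± 0.06, adjusted p = 8.17e-10). PFKFB4 and SLC2A3 were still below every untreated library at 48 h. This comparison and that of 6 h with no treatment share the 6 h libraries.

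**Figure D2:**
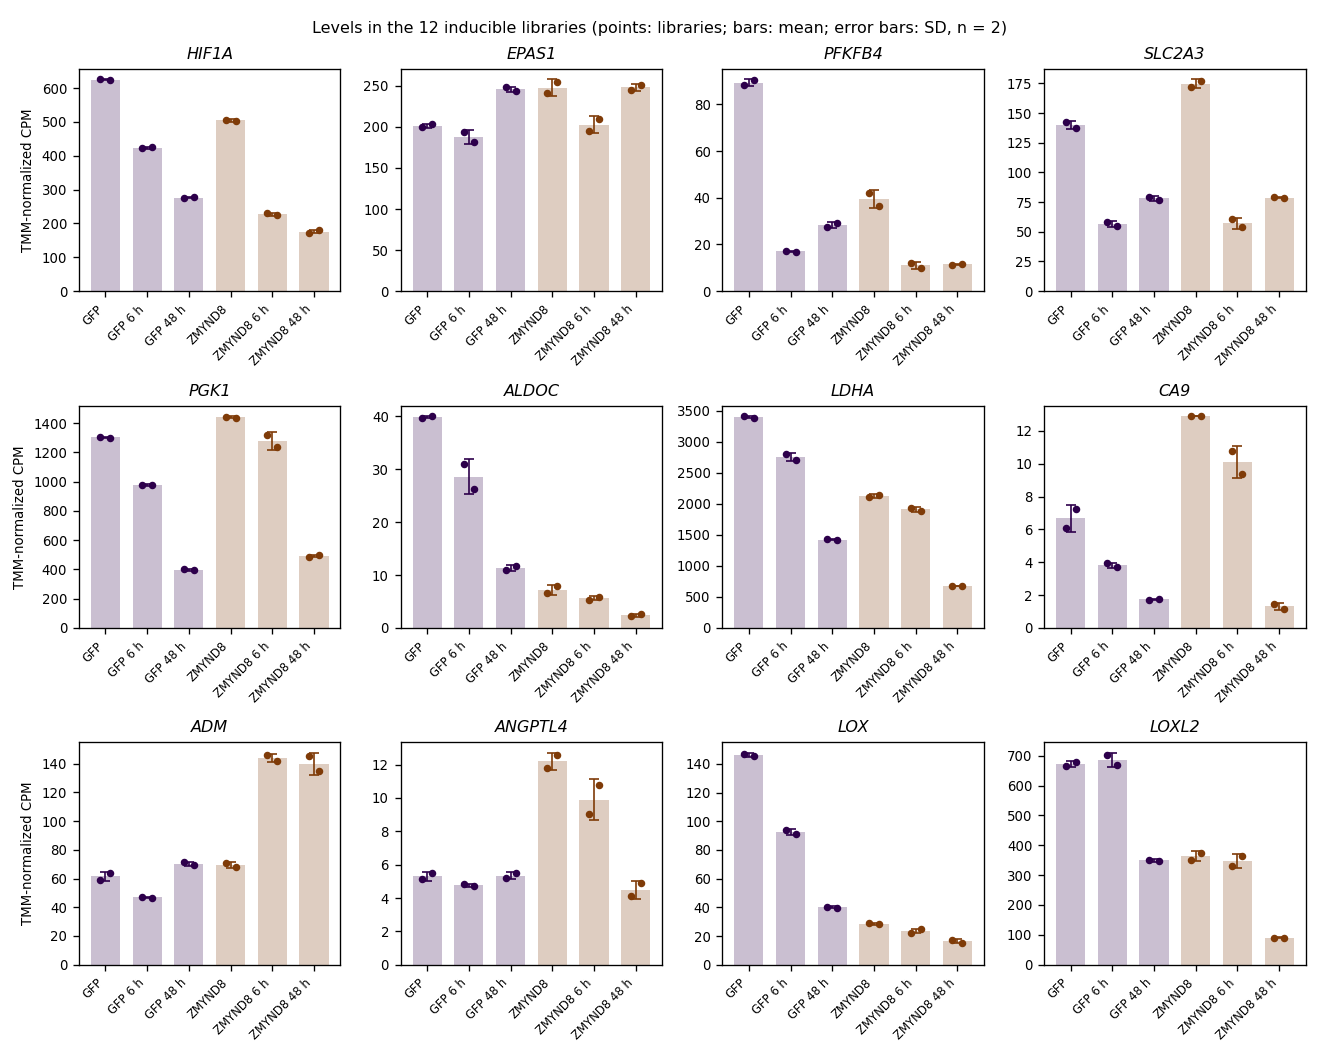
Normalised CPM (vertical axes, from 0) of 12 genes in the 6 groups of the inducible experiment (horizontal axes), with a point for each library, bars for the mean and error bars for the SD of 2 libraries. HIF1A, PGK1 and LDHA step down from 0 to 6 to 48 h in both cell lines, ADM is highest in treated ZMYND8 cells (135 to 146 CPM), and LOX and ALDOC are lower in ZMYND8 cells at every time.

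Without doxorubicin, ZMYND8 cells differed from GFP cells in most of the set, and in both directions. Of the 37 genes 24 were lower and 9 higher, against 29.5% and 28.7% of all genes, and 6 were lower by at least 2-fold, against 11%. The median log2 fold change was -0.31, against 0.00 over all genes. ALDOC was at 6.53 and 7.91 CPM in ZMYND8 cells and 39.7 and 40.0 CPM in GFP cells, a 5.47-fold lower level (log2 fold change -2.45 ± 0.11, adjusted p = 8.78e-17). LOX was at 29.2 and 28.2 CPM against 147 and 145 CPM, 5.10-fold lower (-2.35 ± 0.06, adjusted p = 1.83e-22). The other genes lower by at least 2-fold were EGLN3, at 20.4 and 19.2 CPM (-1.21 ± 0.09), PFKFB4, at 42.0 and 36.6 CPM (-1.19 ± 0.07), the liver-type phosphofructokinase PFKL, at 113 and 115 CPM against 252 and 252 CPM (-1.14 ± 0.05), and MXI1, at 54.8 and 54.4 CPM (-1.03 ± 0.05).

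The genes higher in ZMYND8 cells included both glucose transporters and 3 of the 4 secreted and surface genes. ANGPTL4 was at 11.8 and 12.5 CPM against 5.11 and 5.48 CPM in GFP cells (log2 fold change 1.20 ± 0.14, adjusted p = 3.93e-08), and CA9 at 12.9 and 12.9 CPM against 6.08 and 7.27 CPM (0.95 ± 0.15, adjusted p = 2.67e-06). EPAS1 and ARNT were higher by 0.30 ± 0.04 and 0.44 ± 0.06, while HIF1A was lower at -0.31 ± 0.04. SLC2A3 and PGK1 were higher by 0.32 and 0.14. Of the 13 glycolytic enzymes 9 were lower and 2, PGK1 and HK2, higher, with ENO1 and LDHA each at a log2 fold change of -0.68. PKM, a pyruvate kinase, differed by 0.02 with a 95% interval of -0.06 to 0.10. PDK1 differed by -0.07 with a 95% interval of -0.19 to 0.05, and ANKRD37 by -0.21 with an interval of -0.49 to 0.07. BNIP3, at -0.11, lost its call without either GFP library or without the second ZMYND8 library, with values of -0.10, -0.11 and -0.07.

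The difference between the lines was also read at each time of treatment. After 6 h, 21 genes were lower and 10 higher in ZMYND8 cells, against 26.6% and 29% of all genes. ADM was at 146 and 142 CPM against 47.3 and 46.6 CPM in GFP cells (1.62 ± 0.05, adjusted p = 1.71e-19), CA9 at 10.8 and 9.39 CPM against 3.93 and 3.69 CPM (1.40 ± 0.16) and ANGPTL4 at 9.01 and 10.8 CPM against 4.82 and 4.71 CPM (1.05 ± 0.15). ALDOC, LOX and PFKL were the genes furthest below, with log2 fold changes of -2.35, -1.97 and -1.0. After 48 h, 25 genes were lower and 5 higher, against 31.6% and 28.4% of all genes. ADM, ANKRD37 and HK2 were higher in ZMYND8 cells by 1.00 ± 0.05, 0.78 ± 0.17 and 0.34 ± 0.05, and ALDOC, LOXL2 and PFKL were lower, with log2 fold changes of -2.22 ± 0.15, -1.95 ± 0.05 and -1.61 ± 0.05. CA9 and ANGPTL4, higher in ZMYND8 cells at 0 and 6 h, were at 1.46 and 1.15 CPM and 4.10 and 4.89 CPM in ZMYND8 cells at 48 h, against 1.73 and 1.77 CPM and 5.19 and 5.51 CPM in GFP cells. Neither difference passed the test at 48 h, with 95% intervals of -0.88 to 0.04 and -0.55 to 0.05.

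Within ZMYND8 cells, 48 h of doxorubicin lowered 35 of the 37 genes and raised 1, against 30.8% and 31.6% of all genes, and 21 were lower by at least 2-fold, against 6.5%. The median log2 fold change was -1.15, against 0.05 over all genes, and the share of all counts taken by the 37 genes went from 1.78% and 1.80% to 0.994% and 0.986%. The summed MDA-MB-231 markers went from between 7358 and 7787 CPM to between 4882 and 5043 CPM, and leukocyte markers from between 0.167 and 0.262 to between 2.34 and 2.36 CPM, and their part was not tested. CA9 fell from 12.9 and 12.9 CPM to 1.46 and 1.15 CPM, a 9.82-fold difference (log2 fold change -3.3 ± 0.18, adjusted p = 7.57e-15). NDRG1 went from 1149 and 1163 CPM to 262 and 256 CPM (-2.16 ± 0.04, adjusted p = 5.83e-24) and LOXL2 from 351 and 375 CPM to 89.3 and 91.1 CPM (-2.01 ± 0.05, adjusted p = 2.46e-22). ADM rose from 70.7 and 68.1 CPM to 145 and 135 CPM (1.01 ± 0.05, adjusted p = 6.61e-16). EPAS1 was at 241 and 255 CPM before and 245 and 251 CPM after, a difference with a 95% interval of -0.08 to 0.09 on the log2 scale.

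At 6 h, 25 genes were lower and 2 higher in ZMYND8 cells, against 19% and 21.8% of all genes, with 4 lower by at least 2-fold, against 3.56%, and a median of -0.29 against -0.01 over all genes. PFKFB4, SLC2A3 and NDRG1 fell furthest at 6 h in these cells, with log2 fold changes of -1.82 ± 0.09, -1.61 ± 0.05 and -1.21 ± 0.04. ADM was already at 146 and 142 CPM (1.06 ± 0.05, adjusted p = 3.26e-15). The other higher gene, ALDOA (0.33 ± 0.10), lost its call without the second 6 h library, at 0.22, which left ADM alone. Between 6 h and 48 h, again a comparison added after the values were seen, 30 genes were lower and 3 higher, against 31.3% and 30.2% of all genes. CA9, LOXL2 and LDHA fell with log2 fold changes of -2.94 ± 0.18, -1.95 ± 0.05 and -1.50 ± 0.04, and SLC2A3, EPAS1 and KDM3A rose by 0.46 ± 0.05, 0.29 ± 0.04 and 0.18 ± 0.05.

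Whether the response to doxorubicin itself differed between the lines was tested with an interaction term, the effect in ZMYND8 cells minus that in GFP cells. At 48 h, 14 of the 37 genes had a lower and 6 a higher effect in ZMYND8 cells, against 15.8% and 12.7% of all genes, and 4 differed by 2-fold or more, against 4.45%. ANGPTL4 did not differ from untreated levels in GFP cells by the test but fell in ZMYND8 cells from 11.8 and 12.5 CPM to 4.10 and 4.89 CPM (interaction -1.46 ± 0.21, adjusted p = 4.78e-06). CA9 and LOXL2 fell more in ZMYND8 cells (interaction -1.37 ± 0.28, adjusted p = 3.76e-04, and -1.07 ± 0.06, adjusted p = 1.60e-12). So did NDRG1 (-0.83 ± 0.06), PFKP (-0.48 ± 0.07), PFKL (-0.47 ± 0.07), LDHA (-0.40 ± 0.05), P4HA1 (-0.37 ± 0.06) and HIF1A (-0.34 ± 0.05). Both glucose transporters also fell more and passed the test, with interactions of -0.64 for SLC2A1 and -0.31 for SLC2A3. LOX fell less in ZMYND8 cells, from 29.2 and 28.2 CPM to 17.2 and 15.4 CPM (interaction 1.06 ± 0.09, adjusted p = 9.54e-10). ADM was raised more in ZMYND8 cells (0.82 ± 0.07, adjusted p = 1.66e-09), and ANKRD37 was lowered less (0.99 ± 0.22, adjusted p = 9.60e-04). The levels of CA9 and ANKRD37 are low and their exons overlap genes of the other strand, which limits both interactions. The smaller interactions of PGK1 (0.17) and MXI1 (0.25) lost their calls when single libraries were left out, PGK1 without any of 3 libraries (0.15 to 0.17) and MXI1 without any of 6 (0.22 to 0.26).

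At 6 h the interaction went mostly the other way. Here 16 genes had a higher and 5 a lower effect in ZMYND8 cells, against 7.86% and 5.52% of all genes, with a median of 0.23 over the members and 0.02 over all genes. ADM had the largest, with log2 fold changes of -0.39 ± 0.06 in GFP cells and 1.06 ± 0.05 in ZMYND8 cells (interaction 1.45 ± 0.08, adjusted p = 1.10e-12). PFKFB4 and BNIP3 fell less in ZMYND8 cells (0.57 ± 0.13, adjusted p = 0.00254 and 0.44 ± 0.06, adjusted p = 5.22e-06), although PFKFB4 was at 0.42 and no longer passed without the first 6 h library of ZMYND8 cells. HIF1A fell more in ZMYND8 cells, to 230.3 and 224 CPM from 507 and 502 CPM (interaction -0.59 ± 0.05, adjusted p = 1.26e-08), and HK2, raised at 6 h in GFP cells, was at 112 and 115 CPM against 125 and 130.0 CPM in ZMYND8 cells (-0.54 ± 0.07, adjusted p = 1.93e-06). SLC2A1 also fell more (-0.35 ± 0.06, adjusted p = 1.13e-04). With libraries scaled to total counts, 10 genes in place of 16 had a higher effect. The interactions at 6 and 48 h share the untreated libraries.

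**Figure D3:**
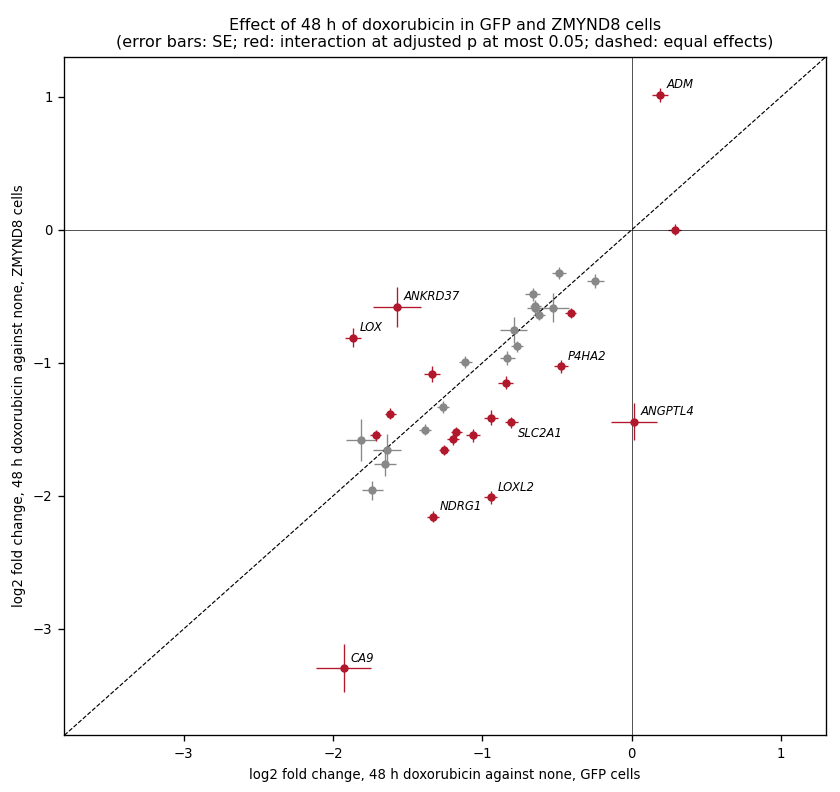
Log2 fold change after 48 h of doxorubicin in GFP cells (horizontal axis) and ZMYND8 cells (vertical axis) for the 37 genes, with SE bars, red where the interaction had an adjusted p of at most 0.05 and a dashed line of equal effects. Most genes lie in the lower left, LOX and ANKRD37 stand above the line, CA9, LOXL2, NDRG1 and ANGPTL4 below it, and ADM alone is raised in both lines.

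Relatives with the same role were compared by level per kilobase, as the ratio of the first to the second gene in each library. EGLN1 to EGLN3 was at a ratio of 0.993 in untreated GFP cells, 1.80 after 48 h, 1.65 in untreated ZMYND8 cells and 3.08 in ZMYND8 cells after 48 h. EGLN1 shares 55.8% of its exon bases with another gene on the same strand, so the size of this ratio is uncertain. SLC2A1 exceeded SLC2A3 by 5.11 times in untreated GFP cells, 11.2 times at 6 h and 5.25 times at 48 h, and by 4.72, 10.1 and 3.84 times in ZMYND8 cells. The ratio of the transporters was highest at 6 h in both lines. PFKFB3 exceeded PFKFB4 by 1.51 times before and 6.16 times at 6 h in GFP cells. LOX stood at 0.224 of the LOXL2 level in untreated GFP cells, 0.118 after 48 h, 0.0814 in untreated ZMYND8 cells and 0.186 in ZMYND8 cells after 48 h. BNIP3 and BNIP3L were at a ratio of 1.09 in GFP cells and 1.76 in ZMYND8 cells without doxorubicin, and of 1.01 and 1.56 after 48 h. HIF1A and EPAS1, at 2.88 in untreated ZMYND8 cells, reached equal levels per kilobase there after 48 h (1.00). P4HA1 to P4HA2 went from 6.43 to 3.90 in GFP cells over 48 h, ENO1 to ENO2 from 17.8 to 14.6, and HK1 to HK2 from 3.07 to 2.79 with a low of 1.57 at 6 h.

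Genes of the same pathways outside the 37 were read from 5 further lists, to be set against the 31.8% lower and 32.4% higher of all genes in GFP cells after 48 h. Of 34 other HIF targets, all tested, 28 were lower and 2 higher in GFP cells after 48 h, with a median of -0.89, and the same counts of 28 and 2 were obtained in ZMYND8 cells. DDIT4, an inhibitor of mTORC1, and the carbonic anhydrase CA12 fell most, with log2 fold changes of -2.97 and -2.89, while PPP1R3C, a glycogen-targeting subunit, rose by 0.84. Of the other glycolysis and lactate genes, 15 of 23 were tested, 8 were lower and 3 higher, with SLC16A3, the lactate exporter, at -1.37 and PGM1 at -0.77, and with HKDC1, a hexokinase-like gene, at 0.91. Of 16 tested HIF regulators out of 17, 7 were lower, with VHL at -0.66, and 4 higher, not far from the shares of all genes. The pyruvate dehydrogenase list had 7 lower and 4 higher of 13, with the phosphatase PDP1 at -0.79 and the pyruvate carrier MPC1 at 0.77. Pentose phosphate and gluconeogenesis genes had 6 lower and 2 higher of 11 tested, with TIGAR, a p53 target that lowers fructose 2,6-bisphosphate, at 0.93.

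Between the lines without doxorubicin, where 29.5% of all genes were lower and 28.7% higher, 23 of the 34 other HIF targets were lower and 7 higher in ZMYND8 cells, with the chemokine receptor CXCR4 at -5.93 and CA12 at -4.34 the lowest and the transferrin receptor TFRC at 0.65 the highest. Of the 16 HIF regulators tested 6 were lower and 5 higher, shares near those of all genes, with ARNT2 at -1.72 and CITED2, which competes with HIF for its coactivator, at 1.08. The other glycolysis genes were 8 lower and 4 higher. Among the lower were the lactate carrier SLC16A1 at -1.53 and TPI1 at -0.72. Among the higher were HKDC1 at 1.37 and PFKFB2, a relative of PFKFB3 and PFKFB4, at 1.18. Of the pyruvate dehydrogenase list 5 were lower and 6 higher, PDK4 by 2.58 and PDHA1 by 1.21, and of the pentose phosphate and gluconeogenesis list 7 were lower, among them FBP1 at -1.04, and 3 higher, among them RPIA at 1.26.

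In the transient experiment, 48 h of doxorubicin again gave lower levels and no higher ones among the members. With doxorubicin alone, 13 of the 37 genes were lower and 0 higher than in control cells, against 2.13% and 2.98% of the 15697 genes tested, and 10 were lower by at least 2-fold, against 1.56%. By edgeR 0 members were higher at an unadjusted p of at most 0.05 either, and by DESeq2 0 were higher and 20 lower at an adjusted one. The median log2 fold change was -0.84, against 0.00 over all genes. ALDOC was at 36.3 and 26.0 CPM in control libraries and 8.82 and 6.15 CPM with doxorubicin (log2 fold change -2.10 ± 0.30, adjusted p = 0.00641), CA9 at 20.7 and 16.1 CPM and 4.84 and 4.14 CPM (-2.05 ± 0.36, adjusted p = 0.0115), and NDRG1 at 528 and 455 CPM and 207 and 157 CPM (-1.44 ± 0.22, adjusted p = 0.00845). The treated libraries of all 3 lay below both control libraries. The genes of the other strand that overlap CA9 and ALDOC held 513% and 31.9% of their counts in these libraries, in which the strands could not be told apart, and NDRG1 overlaps none. From control to doxorubicin alone, the summed MDA-MB-231 markers went from between 5908 and 7279 CPM to between 4213 and 5151 CPM and fibroblast markers from between 46.0 and 69.8 to between 25.2 and 25.6 CPM, and their part was not tested.

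The other genes called with doxorubicin alone included SLC2A3, HK2, PGK1, ENO1, ADM, BNIP3, P4HA1, LOX and MXI1, with ADM at 27.5 and 38.9 CPM against 91.4 and 75.2 CPM. In the inducible experiment ADM was lower in GFP cells at 6 h (-0.39) and higher in ZMYND8 cells at both times. In GFP cells at 48 h, the same time as here, it was slightly higher (0.19), a call lost without the first untreated GFP library. HIF1A was at 418 and 577 CPM in control and 310.3 and 296 CPM in treated libraries, with a log2 fold change of -0.71 ± 0.22, adjusted p = 0.0879. VEGFA split by replicate number in this experiment, at 208 and 77.8 CPM in control and 216 and 87.0 CPM in treated libraries, with a 95% interval of -0.82 to 0.98. With the replicate number as a block, which treats libraries of the same number as paired, 24 genes were lower in place of 13, and 1226 of all genes in place of 335. The count of members was 6 without the first doxorubicin library (164 of all genes), 1, ADM, without the second (15 of all genes), and 3, ALDOC, CA9 and ADM, without both libraries of the near-identical pair (82 of all genes). It was 6 among the 19 genes with no exon on the other strand.

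Against control cells, the libraries labelled ZMYND8 plus doxorubicin had 16 lower genes and 0 higher, against 2.97% and 3.85% of all genes, and 13 lower by at least 2-fold, against 2.19%. CA9 was at 5.39 and 2.62 CPM (-2.20 ± 0.37, adjusted p = 0.0101), ALDOC at 8.08 and 6.21 CPM (-2.12 ± 0.31, adjusted p = 0.00639) and EGLN3 at 1.52 and 2.13 CPM against 7.03 and 7.63 CPM in control libraries (-2.0 ± 0.48, adjusted p = 0.0324). The call of EGLN3 was lost without any 1 of the 4 libraries, at -2.28 to -1.79, and that of CA9 without the second labelled library, at -1.79. The count of lower genes was 23 with the block (1388 of all genes in place of 466), 9 without the second control library (364 of all genes), 5 without either labelled library (34 and 95 of all genes), 11 without the near-identical pair (225 of all genes) and 6 among the genes with no exon on the other strand. This comparison and that of doxorubicin alone share the control libraries.

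The libraries labelled ZMYND8 plus doxorubicin did not differ from those with doxorubicin alone by the test, with 0 of the 37 genes lower and 0 higher, against 0% and 0% of the 15697 genes tested by edgeR, and with 0 members and 54 genes in all at an unadjusted p of at most 0.05. DESeq2 called 0 genes at an adjusted p of at most 0.05 and 30 at an unadjusted one. Without the near-identical pair, which leaves 1 library in each of these groups, edgeR called 20 genes higher and 7 lower of 16035, and with no filter on low counts 6 higher and 11 lower of 37454, with 0 members among them in both. The widest differences, of EGLN3 and PDK1, were -0.64 and -0.51 with 95% intervals of -1.58 to 0.31 and -1.07 to 0.06. There were 2 libraries a group, of which 1 in each is of the near-identical pair. The lack of calls therefore does not show that the groups are equal, and differences within these intervals are not excluded.

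**Figure D4:**
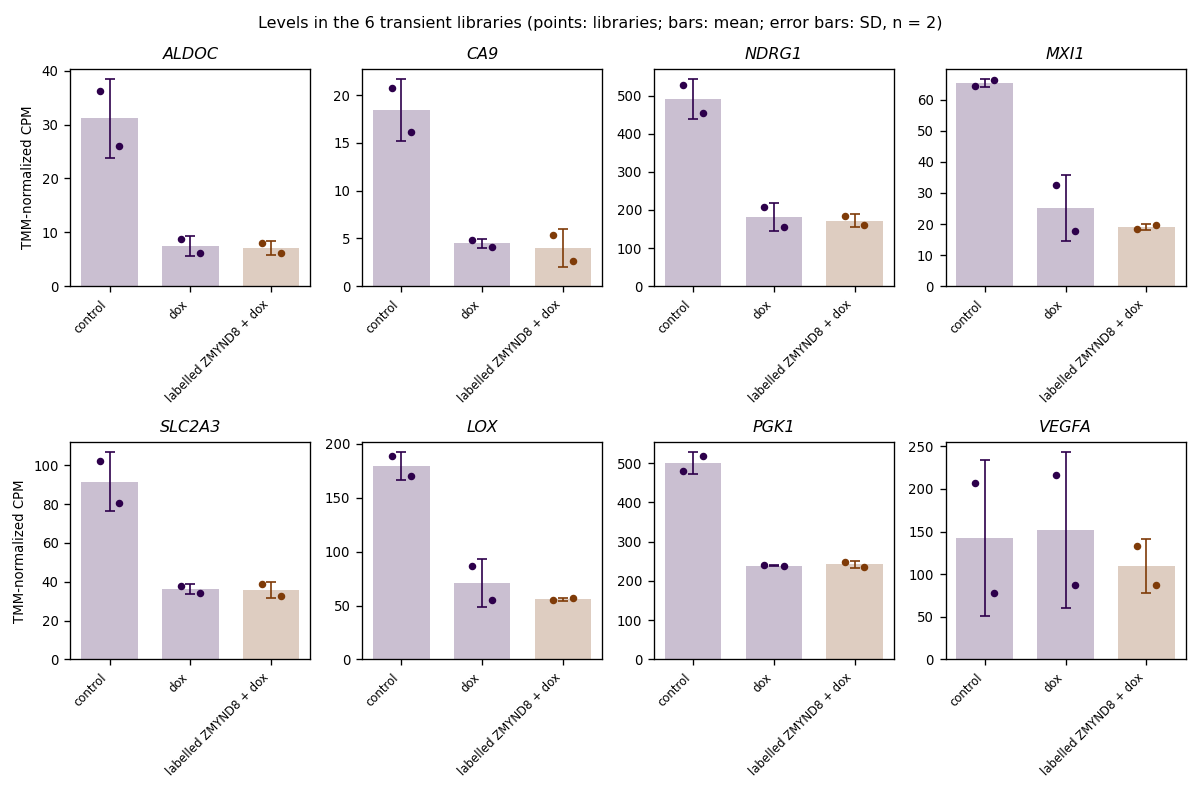
Normalised CPM (vertical axes, from 0) of 8 genes in the 3 groups of the transient experiment (horizontal axes), with a point for each library, bars for the mean and error bars for the SD of 2 libraries. ALDOC, CA9, NDRG1, MXI1, SLC2A3, LOX and PGK1 are lower in all treated libraries than in both control libraries, and VEGFA splits by replicate in place of treatment.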

How the data were processed

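The 18 libraries, 2 in each of 9 groups, were made from polyadenylated RNA of MDA-MB-231 cells. The deposited values are raw counts per gene, made by the authors with featureCounts 1.6.4 on hg38 with GENCODE gene models, per the file headers, with reads counted on the reverse strand and no normalization. The submitters' processing notes name Trim Galore, HISAT2, featureCounts and DESeq2, while the methods of the study name TopHat and cuffdiff. The aligner behind these counts is therefore unsure, and reads that match several places, such as those of the 150 annotated pseudogenes of 15 members, may have been split differently.

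From the counts, edgeR 4.0.16 in R 4.3.3 was run on each table with TMM normalization, its filter on low counts and a quasi-likelihood test over all groups, with Benjamini-Hochberg adjustment over all genes tested (18801 and 15697) and a threshold of 0.05. The standard error is approximate, from the fold change and the F statistic. Levels are TMM-normalized CPM, divided by exon length per kilobase where genes are compared. The test was checked on simulated data. With 2 libraries per group an exact two-sided permutation test cannot go below p = 0.333 and was not used. Intervals are at 95% and are normal approximations from that standard error. They rest on a spread estimated over all groups of an experiment, with 2 libraries a group, and may be too narrow.

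The members and lists were chosen with earlier results of these data known. Values in every library are given for members past a log2 fold change of 1, with no overlap of libraries and a mean log2 CPM of at least 1, in GFP cells at 48 h, between the lines or in the interaction at 48 h, for the most changed member of a role with none, and for HIF1A, EPAS1 and ARNT. Relatives of the same role, the 3 largest rises and falls of each other comparison, and the 2 largest of each pathway list are also named. Numbers may pair the libraries of the transient experiment, where deviations from group means of libraries with the same number correlated at r = 0.208 to 0.404 in all 3 pairs of groups. The near-identical libraries share a number, so the correlation between the 2 doxorubicin groups cannot decide whether numbers pair. A pairing is taken from the data and the shared number only, and the block is given beside those results. Alternatives were total counts or DESeq2 size factors, the DESeq2 1.42.0 Wald test, no filter, the block, each library left out, the cutoff of the study, and the transient libraries without the near-identical pair or the genes that overlap the other strand.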

Additional observations from a re-analysis of the deposited data

Results flagged for a closer look

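The response to doxorubicin differed between ZMYND8 and GFP cells by the interaction test for the genes below, given as the log2 effect in ZMYND8 cells minus that in GFP cells. At 6 h it was 1.45 for ADM, 0.57 for PFKFB4 and 0.44 for BNIP3, and -0.59 for HIF1A, -0.54 for HK2 and -0.35 for SLC2A1. At 48 h it was 1.06 for LOX, 0.99 for ANKRD37 and 0.82 for ADM, and -1.46 for ANGPTL4, -1.37 for CA9 and -1.07 for LOXL2. These are the 3 largest in each direction at each time among the members that passed the test, and the line and ZMYND8 cannot be told apart in them. ADM alone is listed at both times, with the same sign. HIF1A and both glucose transporters also passed the test below 0 at both times, outside the 3 largest at 48 h. The values of CA9, ANGPTL4 and ANKRD37 rest on low levels. Genes of the other strand that overlap CA9 and ANKRD37 held 271% and 376% of their counts in the inducible libraries.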

How the results depend on the processing

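Under the alternatives other than leaving out a library, 147 counts of members stayed within 1.5 times and 33 did not, and 611 values of named members kept their direction and call, 8 lost their call and 2 turned. With 1 library left out, 121 counts stayed and 7 did not, and 586 values kept direction and call, 23 lost their call, 1 gained it and 6 turned. The inducible numbers do not pair the libraries (r = -0.05 to 0.02 over 15 pairs of groups), and the block, with 34 lower members in GFP cells at 48 h, moved no inducible count by over 1.5 times. In the transient experiment the block gave 24 lower members with doxorubicin alone, DESeq2 gave 20, the 19 genes with no exon on the other strand gave 6 there and 6 for the labelled libraries, and 3 were left without the near-identical pair. Leaving out single libraries gave 1 to 16 lower members with doxorubicin alone, 5 to 15 in the labelled libraries, and 1 to 2 and 1 to 3 higher members in GFP cells at 48 h and ZMYND8 cells at 6 h.

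The cutoff of the study (unadjusted p of at most 0.05 and a log2 fold change of 1.5, or 1 in the transient experiment) gave 0 higher members in all inducible comparisons except 1 in ZMYND8 against GFP cells at 6 h. Lower members were then 1 and 9 in GFP cells at 6 and 48 h, 2 and 13 in ZMYND8 cells, 2, 2 and 3 between the lines at 0, 6 and 48 h, 0 for both interactions, and 0 and 3 between 6 and 48 h in GFP and ZMYND8 cells. Scaling to total counts, which put the median of all genes at 0.25 to 0.32 in the inducible comparisons of 48 h with 0 or 6 h within a line and at 0.14 to 0.15 in the transient ones with control cells, gave 1 higher member in ZMYND8 cells at 6 h and 2 at 48 h, 10 in the interaction at 6 h, and 10 and 7 between 6 and 48 h in GFP and ZMYND8 cells. DESeq2 gave 1 higher member in ZMYND8 cells at 6 h.

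Near 0, ARNT in GFP cells at 48 h turned to 0.000398 with total counts, ANGPTL4 there to -0.00729 with no filter, with values from -0.0473 to 0.0535 with a library left out, and the 48 h interaction of EGLN3 ranged from -0.114 to 0.0930 with a library left out. The causes were not tested. Depth limits CA9, ANGPTL4 and ANKRD37, which are under 20 CPM in all but 1 library.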
